A study of Mus musculus with 12 samples.

Results

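The proepicardium (PE) is a cluster of mesothelial cells on the septum transversum, beside the liver bud, whose cells migrate onto the heart and form the epicardium. The mature miRNA composition of mouse PE at E9.5 was described from 3 small RNA libraries, named PE1, PE2 and PE3, of the 12 samples of the series. Members were all mature miRNAs of the count table in these 3 libraries, and 1966 mature miRNAs were listed. PE was dissected by hand from untreated embryos that the labels give as Wt1Cre-EGFP and the paper as Wt1GFP/+, with at least 5 embryos in each sample. Each library was made from 500 pg of total RNA with the Bioo NEXTflex Small RNA kit, which ligates adapters to both RNA ends before PCR. Each sample is a pool of embryos and a whole dissected structure, so fewer cells of a type and less RNA per cell cannot be told apart. No list of miRNAs that define PE was used, so the tissue label was checked only against miRNAs of neighbouring cell types. The spread given below is that among the 3 libraries. The paper states that tissue was pooled, but not that each library had a pool of its own. Differences between pools and between library preparations cannot be told apart.

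A miRNA is cut from a hairpin precursor, and either of its arms (5p or 3p) can be kept as the mature strand. Bases 2 to 8 of the mature strand, the seed, carry most of target recognition, and miRNAs with the same seed form a family. Hairpins that lie close together are often made from 1 transcript.

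The mature strands that carried most counts are shown in groups of a shared seed, with the seed in capitals. Sequences and positions are from RefSeq on GRCm38.p6 (mm10), the build of the counts, which had 1675 of the 1966 listed miRNAs, with 83.9% to 88.0% of each library's counts. The seed AUUGCAC was shared by miR-92a-3p, which stood first in all 3 libraries, and by miR-92b-3p and miR-25-3p from other hairpins:
miR-92a-3p: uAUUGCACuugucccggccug
miR-92b-3p: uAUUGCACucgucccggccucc
miR-25-3p: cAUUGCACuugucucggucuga
The next sequences are of the strands of the Dlk1-Dio3 locus on chromosome 12 that were among the 10 highest, each with a seed of its own:
miR-541-5p: aAGGGAUUcugauguuggucacacu
miR-409-3p: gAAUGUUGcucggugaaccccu
miR-127-3p: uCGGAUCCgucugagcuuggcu
miR-433-3p: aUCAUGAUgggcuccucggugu
miR-382-5p: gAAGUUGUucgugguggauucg
miR-543-3p: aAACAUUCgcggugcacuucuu
The remaining families among the 10 highest are shown because several hairpins of different chromosomes shared their seed, first ACAUUCA, then CCCUGAG, then ACCCGUA:
miR-181a-5p: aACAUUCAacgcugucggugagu
miR-181b-5p: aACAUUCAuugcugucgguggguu
miR-351-5p: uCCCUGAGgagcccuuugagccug
miR-125a-5p: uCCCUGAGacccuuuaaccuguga
miR-125b-5p: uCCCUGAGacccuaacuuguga
miR-99b-5p: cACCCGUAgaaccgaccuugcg
miR-99a-5p: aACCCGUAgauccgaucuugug
miR-100-5p: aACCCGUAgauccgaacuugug

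The libraries were shallow and few miRNAs held most of their counts. PE1 held 152075, PE2 119708 and PE3 121628 counts, and 508, 434 and 381 miRNAs had a count in them. With all libraries thinned to 119708 counts, 494, 434 and 380 miRNAs had a count, so PE1 still had the most. In all, 630 miRNAs had a count in any library, 288 in all 3, 117 in exactly 2 and 225 in exactly 1, and the 288 held 99.03% of the counts. The other 1336 had no count in any library, which allows shares of up to 0.00197% in PE1, 0.00251% in PE2 and 0.00247% in PE3 (3 counts). These floors, and all intervals given here, cover counting error only. The 10 highest of each library by its own ranking held 58.0%, 57.4% and 58.7% of its counts, and the 10 miRNAs with the highest mean shares held 57.8% ± 0.461 (SD, n = 3). The highest 8, 8 and 7 miRNAs of PE1, PE2 and PE3 were enough for 50% of the counts, and 62, 62 and 61 for 90%. The effective number of miRNAs, the number of equally abundant ones that would give the same Shannon diversity, was 48.8, 46.4 and 45.4.

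**Figure D1:**
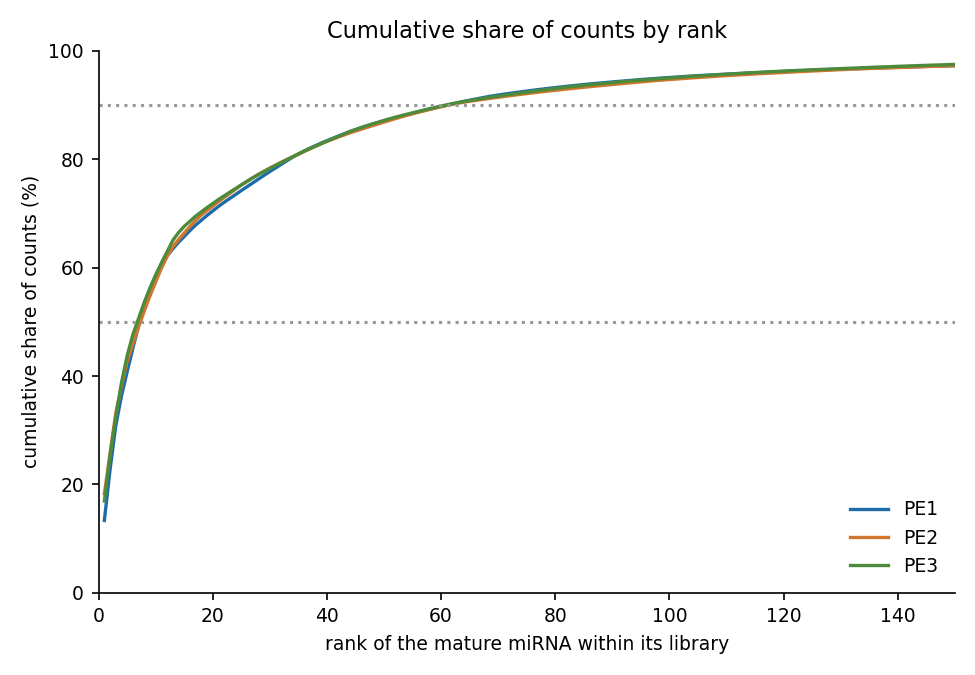
Cumulative share of counts (%) on the y axis against the rank of the miRNA within its own library on the x axis, with 1 line for each of PE1, PE2 and PE3 and dotted lines at 50% and 90%. The 3 lines run close together and reach 90% at 61 or 62 miRNAs.

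miR-92a-3p was the most abundant miRNA of every library. It held 13.4% of counts in PE1, 18.3% in PE2 and 16.9% in PE3, a mean of 16.2% ± 2.54 (SD, n = 3). Its strand is encoded at chr14:115044476-115044496 (+), in an exon of Mir17hg, the host transcript of the miR-17-92 cluster known for its part in cell proliferation, and at chrX:52741854-52741874 (-). Reads of these copies cannot be told apart. The lowest share of miR-92a-3p lay above the highest share of miR-541-5p, the next in order.

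miR-541-5p held 9.41%, 7.51% and 7.04% of the counts of PE1, PE2 and PE3, and miR-409-3p held 8.08%, 7.39% and 6.38%. Both lie in introns of Mirg, a long non-coding RNA of the Dlk1-Dio3 locus, at chr12:109742422-109742446 (+) and chr12:109743204-109743225 (+), and their ranges overlapped. miR-5099, which carries no arm in its name, held 5.52%, 5.00% and 8.42%, and stood 2nd in PE3 but 4th in PE1 and PE2. miR-127-3p held 4.33%, 4.55% and 3.88%. It is encoded at chr12:109592888-109592909 (+), opposite an exon of Rtl1, the retrotransposon-like gene whose transcript it is known to match. miR-433-3p lies opposite the same gene and held 2.83%, 3.21% and 5.02%, highest in PE3.

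The miRNAs next in order differed little from each other. miR-382-5p held 4.46%, 3.18% and 2.98%, and miR-543-3p held 4.18%, 2.89% and 2.97%, both highest in PE1. miR-99b-5p, at chr17:17830194-17830215 (+) in an intron of Spaca6, held 3.01%, 2.79% and 2.17%. miR-181a-5p, encoded on chromosomes 1 and 2, held 2.79%, 2.51% and 2.42%, and miR-351-5p on the X chromosome held 2.21%, 2.58% and 2.67%. The ranges of these neighbours overlapped, and miR-181a-5p stood above miR-351-5p in 1 library only. miR-30d-5p was lower than miR-351-5p in every library, at 2.001%, 2.18% and 2.08%.

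From there to the 20th place the mean shares lay between 0.790% and 1.502%. miR-320-3p held 1.09%, 1.33% and 2.09%, and miR-182-5p, of a cluster known from sensory organs, held 1.30%, 1.77% and 0.742%. miR-423-5p held 0.662%, 1.14% and 1.42%, miR-423-3p 0.813%, 1.19% and 1.17%, and miR-342-3p, in an intron of Evl, 1.197%, 1.22% and 0.678%. The remaining 3 were miR-181b-5p with a mean of 0.916%, miR-93-5p with 0.905% and miR-323-3p with 0.790%. Among the first 29 pairs of neighbours in the order of mean shares, the ranges of the 3 libraries did not overlap at only 3 places: after miR-92a-3p, after miR-5099 and after miR-351-5p. In all, 17 miRNAs averaged over 1% of the counts.

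**Figure D2:**
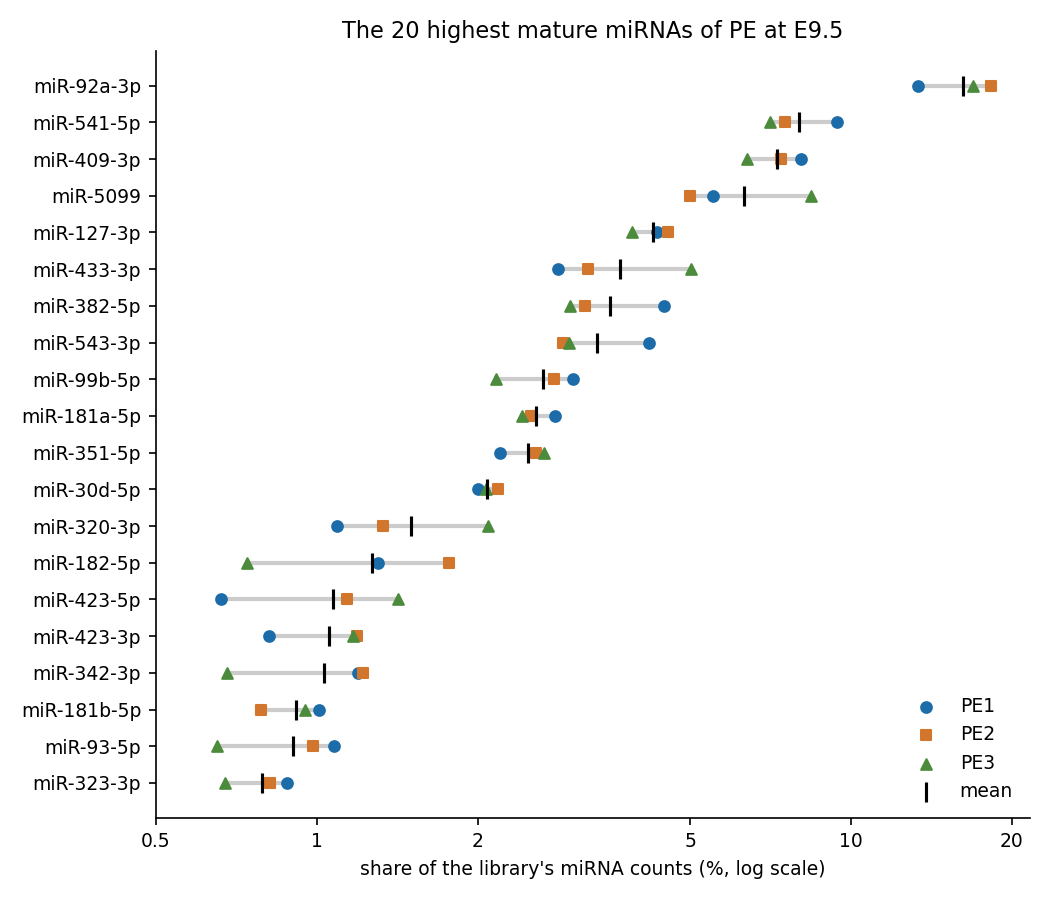
Share of the library's miRNA counts (%, log scale) on the x axis for the 20 miRNAs with the highest mean shares, 1 per line, with a marker for each of PE1, PE2 and PE3, a tick at their mean and a grey line over their range. miR-92a-3p lies apart at 13.4% to 18.3%, and most other neighbours overlap.

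Counts were summed by seed over the matched miRNAs, which leaves out miR-5099, the 4th in order of mean share, and miR-30d-5p. Among these, most leading families rested on 1 member. The family with the seed AUUGCAC held 13.8%, 19.02% and 17.8% of the counts of PE1, PE2 and PE3, and miR-92a-3p made up 96.0% of it. miR-92b-3p had 446, 746 and 834 counts and miR-25-3p had 237, 138 and 162, so the order of these lesser members was the same in all libraries. miR-32-5p, miR-363-3p and miR-367-3p, with the same seed, did not have a count in all 3 libraries. Other families gained from several members. The family of miR-181a, b, c and d (ACAUUCA) held 4.19%, 3.49% and 3.76%, with 67.5% of it from miR-181a-5p. The family of miR-351 and miR-125 (CCCUGAG) held 3.32%, 3.53% and 3.73%, with 70.4% from miR-351-5p. The family of miR-99 and miR-100 (ACCCGUA) held 4.34%, 3.49% and 2.66%, with 75.9% from miR-99b-5p, and was highest in PE1 and lowest in PE3. The other 6 of the 10 leading families were those of the 6 miRNAs of the Dlk1-Dio3 locus shown above, with 1 matched member each. The 10 leading families among matched miRNAs held 57.8% of all counts, and 470 of the 1395 seeds among the matched miRNAs had a count.

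By position, 1 stretch of chromosome 12 held more counts than any other. The Dlk1-Dio3 locus, an imprinted domain whose miRNAs are made from the maternal chromosome, held 43.0%, 37.9% and 38.0% of the counts of PE1, PE2 and PE3, a mean of 39.6% ± 2.91 (SD, n = 3). It was taken as chr12:109563692-109747960, with 59 hairpins and 114 listed miRNAs, of which 64 had a count in all 3 libraries, and it gave 6 of the 10 and 7 of the 20 highest miRNAs. Hairpins within 10 kb of each other on 1 strand were also joined into clusters, from the 1675 miRNAs with a position and without those encoded in several clusters. The cluster of 38 hairpins that begins with Mir379 held 32.0%, 26.8% and 25.1%, and the one of 14 hairpins that begins with Mir770 held 9.15%, 9.498% and 10.9%. That rule left out miR-92a-3p and miR-19b-3p, which the Mir17 cluster on chromosome 14 shares with a cluster on the X chromosome. Together they averaged 16.2% of the counts, and without them these clusters averaged 0.690% and 0.331%. The rule also left out miR-181a-5p. Among clusters summed in this way, that of Mir99b, Mirlet7e and Mir125a on chromosome 17 came next, with 3.94%, 3.53% and 3.38%. The cluster of 7 hairpins on the X chromosome that holds Mir351, Mir503 and Mir322 had 2.61%, 3.03% and 3.06%, and Mir423 alone had 1.47%, 2.33% and 2.58%. The clusters of Mir182 and Mir183, of Mir25, Mir93 and Mir106b within Mcm7, and of Mir342 averaged 1.31%, 1.29% and 1.24%.

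The members of the miR-17-92 cluster were unequal in counts. miR-92a-3p sums 2 gene copies, while miR-20a-5p and miR-17-5p have 1 each. How far adapter ligation and PCR favoured some strands was not measured. miR-92a-3p exceeded miR-20a-5p 32.2-fold in PE1, 35.5-fold in PE2 and 54.6-fold in PE3, and miR-17-5p 65.5-fold, 121-fold and 204-fold. miR-19b-3p, of the same transcripts, had 127, 49 and 19 counts, so miR-92a-3p exceeded it 160-fold, 447-fold and 1084-fold. The order of these 4 members was the same in every library, but the size of the gap was not. miR-18a-5p had 45, 65 and 43 counts, below miR-19b-3p in PE1 and above it in PE2 and PE3.

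Summed over all hairpins, 3p strands held somewhat more counts than 5p strands, which does not describe the use of arms within a hairpin. Of the counts with an arm in the miRNA's name, 5p strands held 48.1%, 43.6% and 41.6% in PE1, PE2 and PE3, a mean of 44.4% ± 3.33 (SD, n = 3), and 3p strands the rest. Without miR-92a-3p the 5p share was 56.1%, 54.1% and 51.2%. A further 6.38%, 6.44% and 10.03% of all counts belonged to miRNAs with no arm in the name, among them miR-5099. Of 216 hairpins with both arms listed under 1 name and at least 20 counts, 75 had more 5p than 3p counts in every library, 76 had more 3p counts, and 65 changed order or had equal counts in a library. With at least 100 counts these were 57, 56 and 14 of 127 hairpins, and 54 of the 127 had over 95% of their counts on 1 arm.

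The arms of miR-92a and miR-181a are partly named by gene copy, so these hairpins were not among the 216. Most of the abundant hairpins among the 216 used 1 arm almost alone. The 5p share was 99.8%, 100% and 99.98% for miR-541 in PE1, PE2 and PE3 and 99.3%, 99.8% and 100% for miR-382. It was 3.12%, 3.13% and 2.07% for miR-409 and 0.288%, 0.457% and 0.0635% for miR-127. The exact Clopper-Pearson 95% interval of the 0.288% was 0.173% to 0.449%. miR-99b departed from this in 1 library, with 92.9%, 96.1% and 83.0% of its counts on the 5p arm, since its 3p strand had 351, 134 and 539 counts.

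Some hairpins gave both strands. miR-423 had a 5p share of 44.9%, 48.9% and 54.8%, so the order of its arms changed between PE2 and PE3. miR-485 was steady at 37.1%, 38.2% and 40.5%. miR-323 had 21.4%, 39.0% and 47.6%, always with more 3p counts. miR-431 (70.4%, 58.4% and 34.8%) and miR-770 (75.8%, 62.0% and 35.5%), both of the Dlk1-Dio3 locus, were mostly 5p in PE1 and PE2 and mostly 3p in PE3. miR-25 (19.4%, 53.8% and 44.1%) and miR-151 (75.9%, 35.8% and 38.8%) differed in PE1 from the other libraries. miR-6967 stood at 50% in every library because its arms had identical counts.

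**Figure D3:**
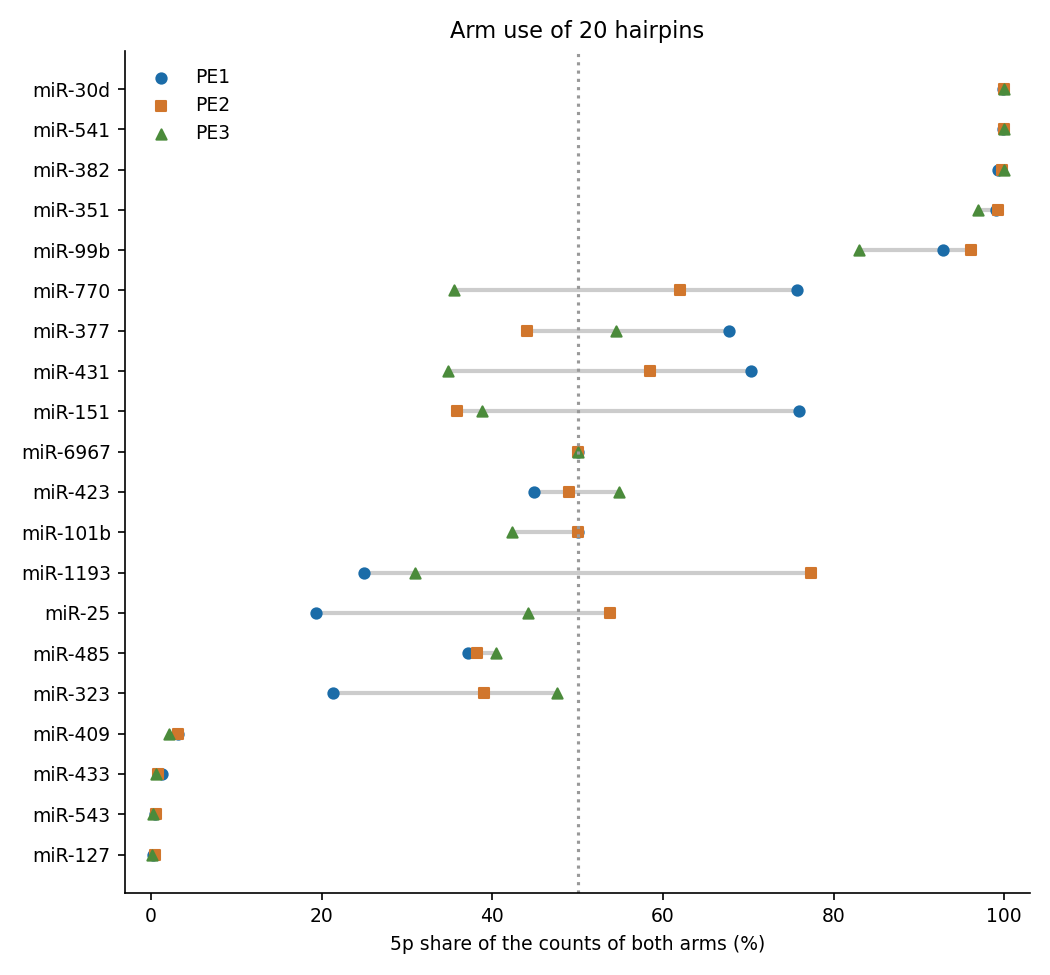
Share of 5p counts among the counts of both arms (%) on the x axis for the 10 hairpins with the most counts among those with both arms listed under 1 name (which leaves out miR-92a and miR-181a) and the 10 further hairpins of at least 100 counts with a mean nearest 50%, with a marker for each of PE1, PE2 and PE3, a grey line over their range and a dotted line at 50%. The abundant hairpins sit near the ends of the axis except miR-423, while miR-431 and miR-770 cross 50%.

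Some miRNAs had exactly the same counts as another. Among miRNAs with at least 10 counts in all, 31 sets covered 71 miRNAs with identical counts in all 3 libraries, and the miRNAs beyond the first of each set held 2.88%, 2.17% and 2.34% of the counts of PE1, PE2 and PE3. In 16 sets all libraries had a count, and 9 of these were pairs that overlap on opposite strands of the genome. Reads of such a pair cannot be told apart in this table. The largest were miR-337-5p with miR-3544-3p (1078, 588 and 643 counts) and miR-126a-3p with miR-126b-5p (1076, 663 and 561 counts). miR-24-3p and miR-3074-5p had 428, 391 and 646 counts each. miR-122-5p and miR-122b-3p also had the same counts, 1055, 463 and 560, but were not placed in the RefSeq table.

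The strands of 3 of these pairs are shown because they are complementary, with the bases that lie opposite each other in the genome in capitals:
miR-24-3p: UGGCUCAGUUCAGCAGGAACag
miR-3074-5p: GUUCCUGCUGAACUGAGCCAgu
miR-126a-3p: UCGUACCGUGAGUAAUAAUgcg
miR-126b-5p: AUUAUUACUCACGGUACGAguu
miR-337-5p: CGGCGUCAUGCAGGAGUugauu
miR-3544-3p: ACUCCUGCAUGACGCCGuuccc
The paired stretches were 20, 19 and 17 bases. Of 35 pairs of listed miRNAs that overlap on opposite strands in the annotation, 21 had a count, and 18 of these had identical counts. In contrast, miR-199a-3p and miR-199b-3p have 1 mature sequence but had 283, 58 and 51 against 84, 31 and 31 counts, so their counts cannot be divided between the genes. Of the 31 sets, 15 held a pair that overlaps on opposite strands, and 10 had counts in 1 library only. Some sets of low counts joined miRNAs that do not overlap, so equal counts alone do not show shared reads.

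miRNAs of the other cell types near PE were found at unequal shares. By mean share, miR-182-5p stood 14th, miR-375-3p 21st, miR-200c-3p 28th and miR-122-5p 34th. miR-122-5p, the leading miRNA of hepatocytes, made up 93.7% of the liver list, which held 0.761%, 0.419% and 0.464% of the counts of PE1, PE2 and PE3 with 2 of 9 miRNAs counted in all libraries. The epithelium and endoderm list held 2.90%, 3.62% and 2.13%, with 8 of 22 miRNAs counted in all libraries. It was led by miR-182-5p, then by miR-375-3p (0.770%, 0.764% and 0.783%), which is known from pancreatic islets, and by miR-200c-3p of the epithelial miR-200 family (858, 970 and 545 counts). The heart and skeletal muscle list held 0.0986%, 0.256% and 0.139%, with 5 of 17 miRNAs counted in all libraries. In it, miR-1a-3p had 33, 98 and 23 counts and miR-133a-3p had 39, 89 and 77. Thus the liver list was highest in PE1 and the muscle list in PE2.

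Blood and vessel miRNAs were partly counted double. The endothelium list, which is miR-126 alone, held 1.48%, 1.17% and 0.947%, but averaged 0.5999% of the unchanged library totals with identical miRNAs taken once. The erythroid list, led by miR-486a-5p (109, 110 and 85 counts), held 0.234%, 0.247% and 0.223%, or an average of 0.124% of the same totals taken once. Of its 8 miRNAs, 5 were counted in all libraries, miR-451a had 23, 14 and 17 counts, and neither strand of miR-144 had a count. The white blood cell list held 0.0526%, 0.0518% and 0.0493%, with 1 of 9 miRNAs counted in all libraries. This was miR-155-5p, which led the list with 43, 35 and 60 counts. The neural list had 140, 68 and 4 counts in all, with 3 of 21 miRNAs counted in all libraries. The part of these cell types in the composition was not tested.

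The mesenchyme and Hox lists were unequal among the libraries. The mesenchyme and smooth muscle list, led by miR-214-3p (378, 144 and 182 counts), held 0.605%, 0.343% and 0.321%, with 8 of 13 miRNAs counted in all libraries. The miRNAs of the Hox clusters held 0.583%, 0.221% and 0.125%, with miR-10b-5p at 418, 121 and 65 counts and miR-10a-5p at 316, 65 and 32. Of 11 miRNAs of the Hox list, 4 were counted in all libraries. Both lists were highest in PE1. The let-7 list, whose members accumulate as tissues mature, held 0.438%, 0.202% and 0.323%, and the list of the miR-302 and miR-290 clusters, known from pluripotent cells, 0.220%, 0.269% and 0.276%. The list of pluripotent cells holds identical pairs and averaged 0.255%, or 0.153% with these taken once. The miR-29 list had 7, 0 and 0 counts. miR-483 and miR-675 of the imprinted H19 and Igf2 locus together held 0.381%, 0.514% and 0.764%, almost all from miR-483. miR-483-3p had 363, 350 and 697 counts and miR-483-5p 216, 243 and 232. miR-675-5p had 1, 22 and 0 counts and miR-675-3p had none.

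The miRNAs that the study names, with their close relatives, ranged from common to not detectable. miR-125b-5p had 667, 410 and 401 counts in PE1, PE2 and PE3, miR-125a-5p had 1012, 728 and 895, and miR-100-5p held 0.665%, 0.273% and 0.247%. miR-23b-3p had 49, 67 and 6 counts and was lowest in PE3. miR-27b-3p had 5, 0 and 0 counts and miR-195a-5p 1, 0 and 0. miR-223-5p had 13, 0 and 0 counts, while miR-223-3p had none in any library. The 4 strands of miR-146a and miR-146b had no count, nor had miR-195b, so they were not detectable at this depth. Of miR-130, both strands of miR-130a had no count, while miR-130b-5p had 42, 88 and 90 counts and miR-130b-3p had 25, 14 and 34.

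The libraries differed by more than counting error for most miRNAs. This spread may hold differences between pools and between library preparations, PCR copies included, which cannot be told apart. Over 137 miRNAs with a mean of at least 50 counts, the median coefficient of variation of the share was 31.8% (quartiles 18.4% and 49.9%), against 6.68% from counting alone. It exceeded counting error for 132 of them, and 59 differed over 2-fold between the highest and lowest library while 44 stayed within 1.5-fold. The common biological coefficient of variation, the spread beyond counting that edgeR estimated over 288 miRNAs, was 0.565. Without PE2 it was 0.662 and without PE3 0.501. By abundance, the median coefficient of variation was 49.8% for means of 50 to 100 counts, 27.9% for 100 to 200, 35.0% for 200 to 500, 22.7% for 500 to 1000 and 16.5% for at least 1000 counts, so it was highest in the lowest bin and lowest in the highest, with no steady fall between them.

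The ratio of observed to counting variance was largest for abundant miRNAs: miR-5099 (669), miR-92a-3p (558), miR-433-3p (477), miR-541-5p (277) and miR-382-5p (259). At a given coefficient of variation this ratio grows with the mean count. Their coefficients of variation were 29.2%, 15.7%, 31.6%, 15.7% and 22.7%, each below the median of 31.8%. The ratio was smallest for miR-375-3p, at 0.139 with a coefficient of variation of 1.22%, then for miR-7a-5p, miR-93-3p, miR-341-3p and miR-434-5p. These alone varied less than counting error gives on average. The largest coefficient of variation was that of miR-10a-5p, 102%. Across the 288 miRNAs, log2 shares of PE1 and PE2 correlated with Pearson's r = 0.898, of PE1 and PE3 with 0.836 and of PE2 and PE3 with 0.853, as a description over miRNAs, which are not independent replicates. PE1 and PE2 shared 17 of their 20 highest miRNAs, PE1 and PE3 15, and PE2 and PE3 16.

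**Figure D4:**
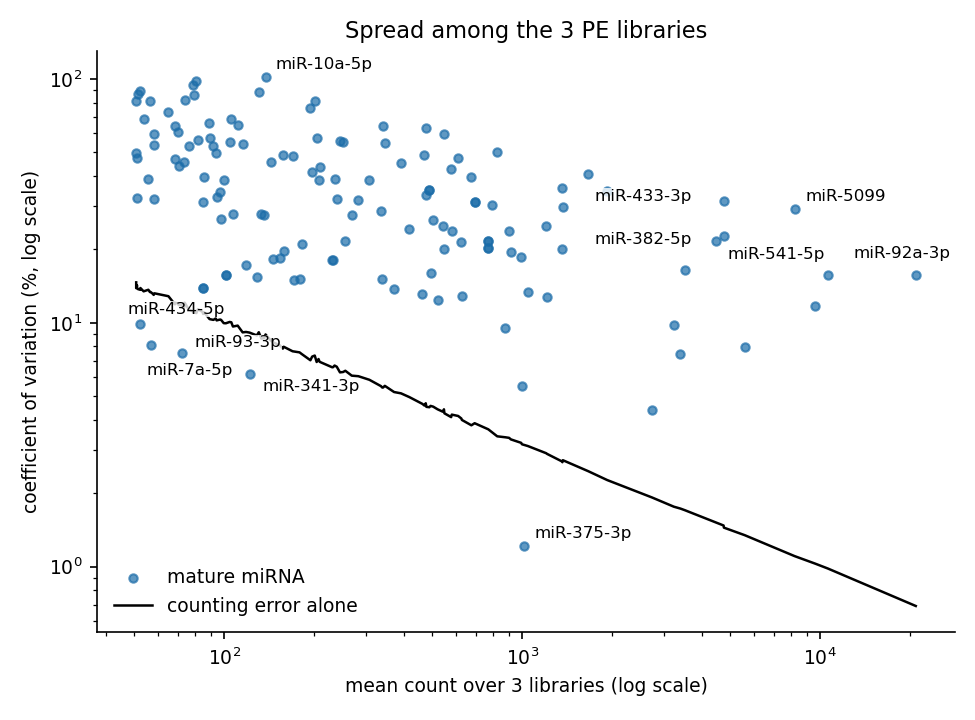
Coefficient of variation of the share among PE1, PE2 and PE3 (%, log scale) against the mean count (log scale), 1 point for each of 137 miRNAs, with a black line for counting error alone. Of the points, 132 lie above the line and 5, among them miR-375-3p, below it.

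Base composition was set beside the differences between libraries. Over 120 of these miRNAs with a sequence, the log2 ratio of shares in PE3 over PE1 and the GC content of the strand had a Spearman's rho of 0.497, PE2 over PE1 0.371 and PE3 over PE2 0.316. These ratios share libraries and the values are a description over miRNAs. Outside the Dlk1-Dio3 locus, over 84 miRNAs, they were 0.573, 0.410 and 0.345. The median log2 ratio of PE3 over PE1 was 0.95 for the 30 miRNAs of at least 60% GC, 0.16 for 37 of 50% to 60%, -0.63 for 39 of 40% to 50%, and -0.33 for 14 under 40%. Weighted by counts, GC content was 52.4% in PE1, 53.6% in PE2 and 54.1% in PE3. Its part in the spread was not tested.

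**Figure D5:**
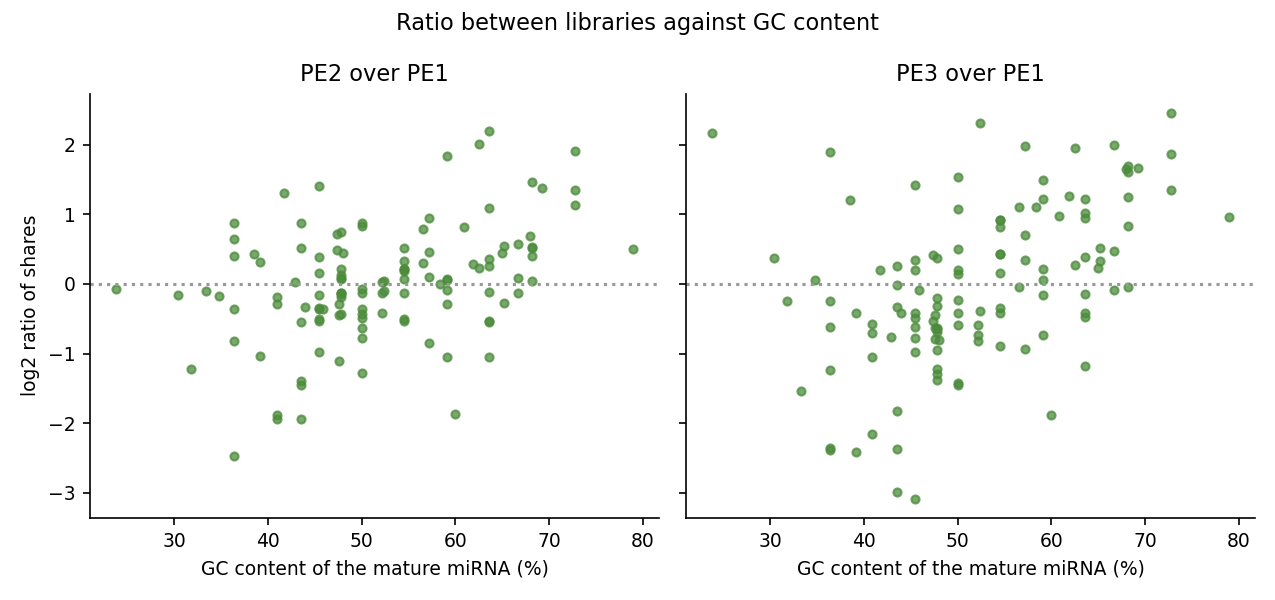
Log2 ratio of shares in PE2 over PE1 (left) and PE3 over PE1 (right) against the GC content of the mature miRNA (%), 1 point for each of 120 miRNAs. In the right panel the median of the points of at least 60% GC is 0.95.

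Strands that begin with U, the base Argonaute proteins are known to favour, held 41.7%, 48.1% and 44.8% of the matched counts of PE1, PE2 and PE3. Without miR-92a-3p, which begins with U, they held 31.2%, 34.5% and 30.9%. Of all matched miRNAs, each taken once, 41.0% begin with U. The shares thus lay above this value with miR-92a-3p and below it without. They cover the 83.9% to 88.0% of each library's counts that were matched, which leaves out miR-5099 and miR-30d-5p. A link between first base and abundance was not tested.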

How the data were processed

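The authors deposited a table of whole-number counts per mature miRNA, not normalized. The paper names HISAT2 as the aligner, mm10 as the genome and featureCounts with miRBase positions as the counter. In the submitters' processing notes the tools are featureCounts, STAR and Trim Galore (0.4.3.1). Handling of reads with several positions, and of strand, is not given in the sources used here. The sources used here state no use of molecular identifiers, so counts may hold PCR copies and intervals cover counting error only. The 3 columns of other samples in the table and the mRNA counts were not used.

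Columns were matched to samples by name. Shares are counts over the library's total, and means are over the 3 libraries. No test was run, since only 1 group was described. Intervals are exact Clopper-Pearson at 95%. The biological coefficient of variation was estimated with edgeR 4.0.16 in R 4.3.3, with TMM factors, and other values with Python 3.11.15, pandas 2.3.3 and numpy 2.4.6. Host genes are from GENCODE on GRCm38, and genes with no hairpin entry in the RefSeq table were placed by their mature strands. The functions were tested on simulated data.

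The text names from a rule: the 20 miRNAs with the highest mean shares, the 10 leading seed families, hairpins and clusters, further hairpins near 50%, the largest identical sets, the 5 largest and 5 smallest variance ratios, up to 4 members of each list and miRNAs of the families the study names. miR-10a-5p was also taken for its coefficient of variation, miR-27b, miR-146b and miR-100 for the study's text, and miR-451a and miR-144 to show the rest of the erythroid list. Members and lists were chosen with earlier results of these data known. Alternatives were identical sets kept once, a minimum of 10 counts, thinning, pooling, other scaling and each library left out.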

Additional observations from a re-analysis of the deposited data

How the results depend on the processing

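No paired analysis was possible because 1 group was described and no result comes from a test. With identical miRNAs kept once, the share of the 10 highest miRNAs was 59.3% and the effective number 43.6, against 57.8% and 46.9. With only miRNAs of at least 10 counts, 33 hairpins had more 5p counts, against 75, because hairpins whose lesser arm was dropped no longer had both arms listed. Thinning drew each miRNA separately, which breaks identity, and left 0.0780% of counts in identical sets, against 2.46%. Leaving out 1 library gave a median coefficient of variation of 22.0% to 35.4% and a common biological coefficient of variation of 0.501 to 0.662. Each value was taken over the miRNAs that passed the filter in the remaining libraries. The limit set for these coefficients of variation was the SD of the values with 1 library left out. Values with 1 library left out were thus judged against their own scatter. The other values of the 9 main results moved by less than this limit, by less than the SD among libraries for shares and the effective number, or by less than 1.5-fold for counts. The shares of the 20 highest miRNAs did so under all 4 kinds of alternative run on them. For a mean share with 1 library left out, this outcome was fixed in advance. The mean of the remaining libraries always lies within the SD among all of them. Leaving out a library is therefore no check of the shares of miRNAs, of lists or of the locus. Of the 21 lists, 5 moved by more with identical miRNAs kept once and library totals reduced to match (endothelium 0.615%, erythroid cells 0.127%, miR-23/27/24 0.0504%, miR-302 and miR-290 clusters 0.157%, white blood cells 0.0438%), because these lists hold identical pairs or, for miR-24-3p, the copy that was dropped. Depth limits the rare miRNAs: 225 had a count in 1 library only.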
